A study of Mus musculus with 20 samples.

Results

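The comparison described here sets the wild-type (WT) microglia sorted as C3aR+ against WT microglia sorted without that selection, in 6 of the 20 RNA-seq libraries of the series. The libraries were chosen by their labels alone, 3 labelled WT, C3aR+ (replicates 1 to 3) and 3 labelled WT (replicates 4 to 6), and every gene with a value was examined. The study asked how the complement receptor C3aR shapes microglia in an amyloid model, the APP-KI mouse, and the other 14 libraries came from APP-KI, C3aR-KO and APP-KI;C3aR-KO brains. All mice were C57BL/6 and 9 months old, and each library was bulk RNA from brain cells sorted as CD45mid CD11b+ after papain digestion.

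The WT, C3aR+ cells came from a cross of APP-KI mice with a C3ar1 fl/fl line homozygous for a Td-tomato reporter that sits in the endogenous C3ar1 locus, and Td-tomato fluorescence was the added gate. The unselected WT cells, called all sorted below, came from littermates in a separate cross, of C3aR-KO with APP-KI mice, that did not use the reporter line. The sort, the mouse line and the series of library numbers (ZE22 for C3aR+, ZE24 and ZE26 for all sorted) therefore changed together, and depth changed with them. These differences cannot be told apart in any value below, and no term in a model could separate them. The labels give neither the sex of the mice nor how many went into a library, so p-values measure the spread between these samples, which may be technical.

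C3aR, encoded by C3ar1, is the G protein-coupled receptor for C3a, a fragment released when complement C3 is cleaved, and in the brain it is found mainly on microglia. Microglia are the resident macrophages of the brain. They take up debris, synapse fragments and amyloid, and degrade them in lysosomes by means of cathepsins, glycosidases and lipid-handling proteins that work in an acid lumen kept by a proton pump.

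The WT C3aR+ libraries held 19962604 to 30388941 gene reads and the WT all sorted libraries 67797819 to 76608464. The values analysed are gene counts divided by each library's upper quartile, multiplied by 1 constant that is the same for every library. They are called scaled values here and are not corrected for gene length, so they are compared between libraries and not between genes. The 3 C3aR+ libraries resembled each other less (Pearson's r across genes of log2 values 0.953 to 0.957) than the 3 all sorted libraries did (0.985 to 0.994), and they resembled the all sorted libraries (0.958 to 0.972) more than each other. The median SD of a gene was 0.238 on the log2 scale in C3aR+ and 0.108 in all sorted. Among Y-linked genes, Uty stood at 40.7, Eif2s3y at 30.1 and Ddx3y at 7.49 in WT all sorted replicate 4. In the other WT libraries, C3aR+ replicate 2 included, these genes were at or near 0. Kdm5d stood at 5.39 in all sorted replicate 4 and at 10.6 in C3aR+ replicate 2. Y-linked RNA thus differed between single libraries, and 0 of these 4 genes passed the limma test. Its part in the results was not tested.

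RNA of the gene behind the sort came out opposite to the label, which rests on Td-tomato fluorescence and not on C3ar1 RNA. By that reporter the paper describes most WT microglia as having modest C3aR levels, with small shares low or high. C3ar1 (chr6:122847138-122856161, minus strand, GRCm38) had scaled values of 71.0, 81.2 and 37.6 in the libraries labelled WT, C3aR+ and of 276, 329.9 and 340.0 in WT all sorted. The groups did not overlap, and the mean was 63.3 ± 22.8 (SD, n = 3) against 315 ± 34.6 (SD, n = 3), which is 4.98 times higher in all sorted. On the log2(scaled value + 1) scale the difference was -2.37 ± 0.25 (SE; limma with a mean-variance trend, adjusted p = 0.0326). An exact permutation test of the 6 values, two-sided, gave p = 0.1, the smallest that 20 arrangements allow. The values rest on 1056 to 2208 reads in the C3aR+ libraries and on 18626 to 24969 in all sorted, and the part of depth in the difference was not tested.

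Measured the same way, C3ar1 lay at 39.9 to 68.1 in the 3 C3aR-KO libraries and at 61.9 to 80.4 in the 5 APP-KI;C3aR-KO libraries, beside 37.6 to 81.2 in the libraries labelled WT, C3aR+. The APP-KI libraries behaved otherwise, with 201 to 383 in C3aR+ and 165 to 388 in all sorted, and a log2 difference of -0.02 ± 0.34 (SE, n = 3 per group; limma adjusted p = 0.999). The files give 1 value a gene, so reads over a deleted or floxed stretch could not be looked at apart from the rest. None of the 6 other tested genes within 250 kb of C3ar1 passed the limma test (0 below 0.05 before adjustment, 0 by edgeR or DESeq2), and their differences had a median of -0.01.

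**Figure D1:**
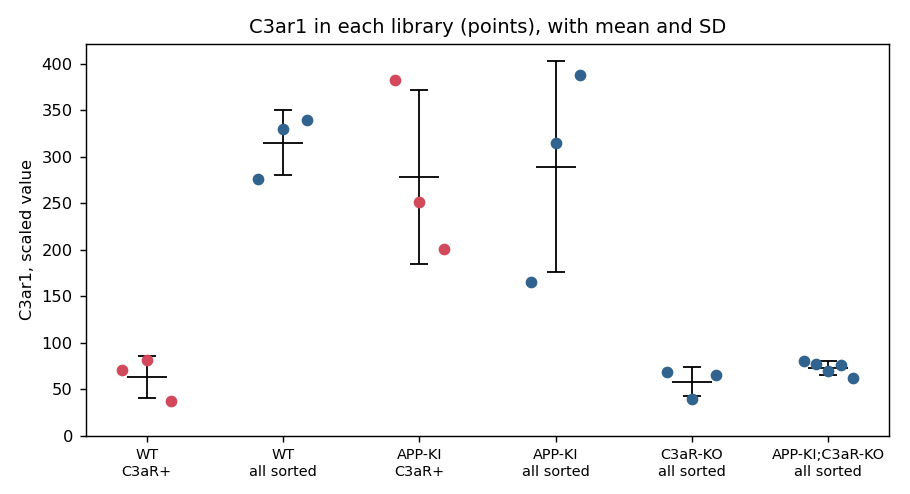
C3ar1 scaled value (vertical axis, from 0) in each library of the 6 groups, with points for libraries and bars for mean and SD. The 3 libraries labelled WT C3aR+ sit between 37.6 and 81.2, below all 3 WT all sorted libraries, and the C3aR-KO and APP-KI;C3aR-KO libraries sit between 39.9 and 80.4.

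In limma, 12185 genes reached the minimum mean of 1 over the 6 libraries and were tested. Of these, 24 were higher in the libraries labelled WT, C3aR+ (0.197% of those tested) and 72 were lower (0.591%), 96 in all (0.788%), at an adjusted p under 0.05. All 96 had groups that did not overlap, as 9.91% of all genes did with C3aR+ higher and 13.1% with C3aR+ lower. Most called differences were moderate. Only 25 reached 1 on the log2 scale, of which 23 were lower and 2 higher. The adjusted p-values lay between 0.0211 and 0.0496, close to the threshold, and the calls depended on single libraries. Leaving out C3aR+ replicate 1, all sorted replicate 5 or all sorted replicate 6 each left 0 genes called. All 96 kept their direction, which was fixed in advance because their groups did not overlap. DESeq2 on the reads recovered from the files called 452 genes higher (3.71%) and 476 lower (3.91%), including all 96, and edgeR called 15 (0.123%) and 36 (0.295%), all 51 of them among the 96.

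**Figure D2:**
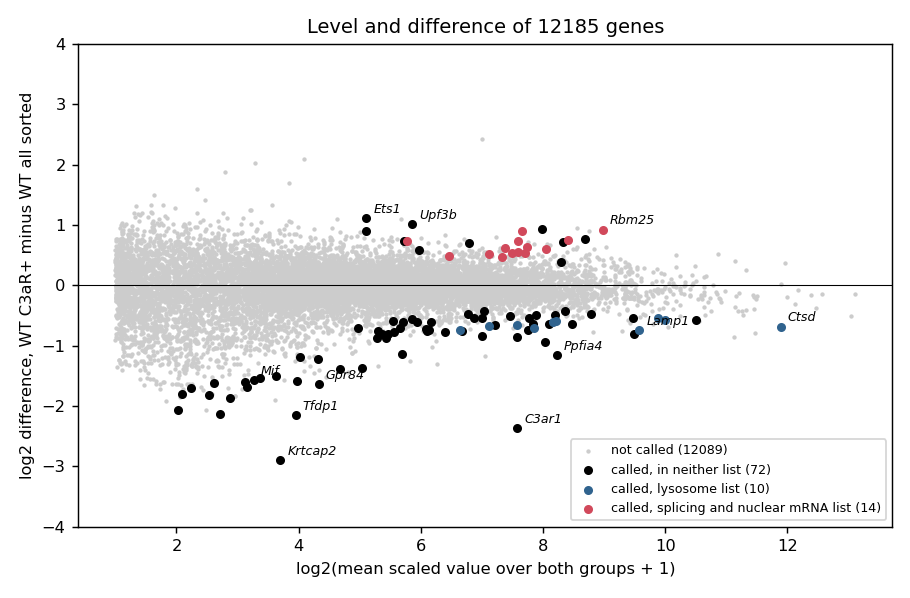
Log2 difference between the libraries labelled WT C3aR+ and WT all sorted (vertical axis) against the mean level over both groups on a log2 scale (horizontal axis), one point per gene for 12185 genes. Called genes are large points, 10 of them from the lysosome list in blue and 14 from the splicing and nuclear mRNA list in red, and 23 called genes lie at or below -1 while 2 lie at or above 1.

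The lysosomal list held the most lower genes of the lists examined. This list, like the others, was written with earlier results of these data known, so its counts describe these libraries and are not an independent test. Of 45 lysosomal genes listed, 44 were tested, and 10 were lower in the libraries labelled WT, C3aR+ (22.7%, against 0.591% of all genes) and 0 higher. The list's median difference was -0.39, against -0.02 over all genes, with 39 of 44 members below 0, as were 53.9% of all genes. In 30 of the 44 (68.2%) the 3 C3aR+ libraries lay below all 3 all sorted libraries, where 13.1% of all genes did. DESeq2 called 26 of the 44 lower (3.91% of all genes were) and edgeR 6 (0.295% of all genes were). The mean of the list in single libraries was 7.93 to 8.07 in C3aR+ and 8.28 to 8.43 in all sorted on the log2(scaled value + 1) scale. Sums over the list ran from 30992 to 34760 and from 40628 to 46182 in scaled units.

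Among the membrane and pump genes, Lamp1, a major glycoprotein of the lysosomal membrane, had scaled values of 611, 618 and 486 in C3aR+ and of 860.4, 1038 and 960.1 in all sorted. Every C3aR+ library was below every all sorted one, with a difference of -0.74 ± 0.12 (SE; limma adjusted p = 0.0421). Atp6ap1, an accessory subunit of the proton pump that acidifies the lysosome, was 134, 163 and 142 against 214, 242 and 237, a difference of -0.66 ± 0.09 (limma adjusted p = 0.0344).

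Proteases fell by similar amounts. Ctsd, the aspartic protease cathepsin D, was 2785, 3072 and 2869 in C3aR+ and 4372, 5099.6 and 4577 in all sorted, a ratio of 0.621 and a log2 difference of -0.69 ± 0.11 (limma adjusted p = 0.0456). The carboxypeptidases Ctsa (-0.53) and Ctsz (-0.57) and the tripeptidyl peptidase Tpp1 (-0.58) also fell. Ctsb, Ctsl and Ctss, cysteine cathepsins, had differences of -0.42, -0.40 and -0.38 without overlap between groups, and did not pass the test.

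Enzymes and carriers that handle glycans and lipids were also among the called members. Ppt1, a palmitoyl thioesterase, was 159.7, 182 and 182 against 264, 306 and 284, with a difference of -0.70 ± 0.09 (SE; limma adjusted p = 0.0344). Naglu, which removes N-acetylglucosamine from heparan sulfate, was 112, 106 and 100.3 against 160.5, 172 and 176, with a difference of -0.67 ± 0.08 (limma adjusted p = 0.0333). Npc2, the soluble cholesterol carrier, had a difference of -0.61. The hexosaminidase subunit Hexa (-0.58, adjusted p = 0.0569) and the saposin precursor Psap (-0.79, adjusted p = 0.0815) had separated groups and did not pass the limma test. Outside the list, the called lower genes also held Gm2a, the GM2 ganglioside activator (-0.85), Plbd2, a lysosomal phospholipase-like protein (-0.75), Creg1 (-0.65) and Laptm4b (-1.18), named here after their values were seen.

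**Figure D3:**
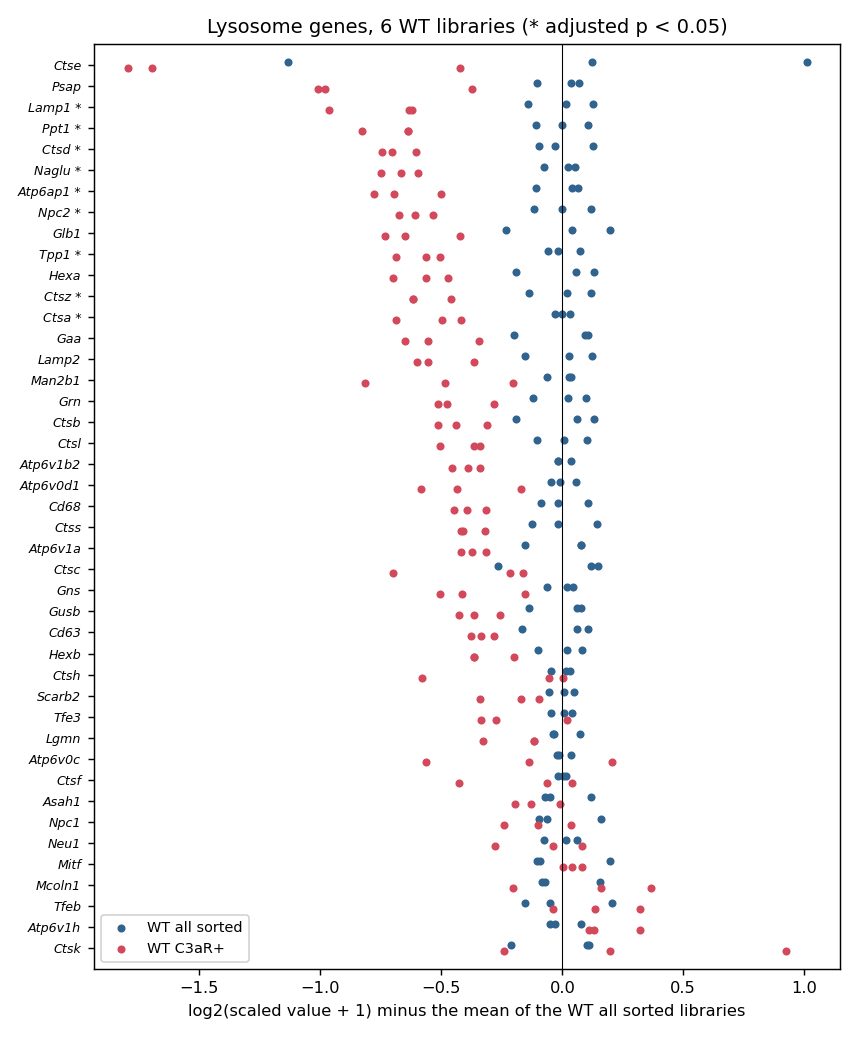
Tested lysosome genes (43 of the 44) in the 6 WT libraries, ordered by difference, as log2(scaled value + 1) minus the mean of the WT all sorted libraries (horizontal axis), with blue points for all sorted and red for the libraries labelled C3aR+. In 29 of the genes shown the red points all lie left of the blue ones, and asterisks mark the 9 genes shown that passed the test.

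Transcription factors for lysosomal genes were measured too. Tfeb (0.14, adjusted p = 0.647) and Tfe3 (-0.20, adjusted p = 0.385), which bind E-boxes at many lysosomal genes, did not pass the limma test and their groups overlapped. The letters CACGTG, which read the same on both strands, form the core of that E-box, and they are shown because several called lysosomal genes carry them close to the start. Promoters of 300 bases (250 before to 50 after the RefSeq start, GRCm38.p6) were found by symbol for 9 of the 10 called lysosomal genes, and 4 of these held CACGTG. Of the 34 lysosomal genes with a promoter, 12 held it (35.3%), against 1136 of 9744 tested genes (11.7%), 9 of 58 called lower genes (15.5%) and 1 of 22 called higher genes. A match is a description of these letters and says nothing on binding. The 100 bases before the start of Lamp1 (chr8:13159061-13159160, plus strand) and 26-base windows at Ctsa (chr2:164833751-164833776, plus strand), Ctsd (chr7:142387910-142387935, minus strand) and Naglu (chr11:101070011-101070036, plus strand) are given 5′ to 3′ from RefSeq, with CACGTG in capitals:
Lamp1: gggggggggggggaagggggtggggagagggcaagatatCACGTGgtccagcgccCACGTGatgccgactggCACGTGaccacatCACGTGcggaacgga
Ctsa: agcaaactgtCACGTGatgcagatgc
Ctsd: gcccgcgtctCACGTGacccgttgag
Naglu: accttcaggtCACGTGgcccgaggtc
Lamp1 has 4 copies in its window, and the other windows have 1 each. The Ctsd promoter holds a further CACGTG at its upstream edge, which is not shown.

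Genes of protein glycosylation in the endoplasmic reticulum included the called gene with the greatest fall. Krtcap2, a subunit of the oligosaccharyltransferase, which transfers glycans onto nascent proteins, was 4.28, 0.635 and 2.14 in C3aR+ and 17.9, 24.6 and 22.2 in all sorted. The difference was -2.90 ± 0.41 (SE; limma adjusted p = 0.0344), and the lowest library rests on 13 reads. Rpn2 (201, 187 and 149 against 313, 365 and 344) and Ddost (83.0, 99.9 and 88.3 against 156, 173 and 158), subunits of the same enzyme, fell by 0.93 and 0.84 on the log2 scale. All 12 tested subunits had a difference below 0, as had 53.9% of all genes, with a median of -0.31, and 3 were called (25%, against 0.591%). That list was put together after these values were seen and supports nothing by itself.

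Among other genes with large falls, Tfdp1, the dimer partner of E2F factors, was 5.79, 3.42 and 4.98 in C3aR+ and 24.2, 22.1 and 26.2 in all sorted, a difference of -2.15 ± 0.22 (limma adjusted p = 0.0326). E2f1 fell as well (-1.80). The proliferation list had the lowest median of the 23 lists plotted, -0.78 over 27 tested genes. Of these, 25 were below 0 (53.9% of all genes were) and 16 (59.3%, against 13.1% of all genes) did not overlap, but 0 passed the limma test. By limma 16 were lower at a p under 0.05 before adjustment, as were 1160 of all 12185 genes. DESeq2 called 7 lower, where it called 3.91% of all genes lower, and edgeR called 0. Cdk1, the kinase that drives entry into mitosis, was 0.836, 1.17 and 1.03 in C3aR+ against 4.19, 5.19 and 6.92 (difference -1.66, adjusted p = 0.0569), and its lowest library held 24 reads. The proliferation marker Mki67 overlapped between the groups.

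Receptors and ligands were also among the called genes. Gpr84, a receptor for medium-chain fatty acids, was 11.1, 10.6 and 5.38 in C3aR+ and 26.2, 27.3 and 34.0 in all sorted (difference -1.64 ± 0.26, limma adjusted p = 0.0421). Mif, a cytokine listed here with the hypoxia and glycolysis genes, was 3.57, 4.98 and 3.10 against 12.96, 12.1 and 14.9 (difference -1.57 ± 0.24, limma adjusted p = 0.0399) and was the only one of 51 tested genes of that list to pass, while the list's median was -0.10. Fzd5, a Wnt receptor (-1.60), and Nptxr, the neuronal pentraxin receptor (-1.86), fell too. Ppfia4, a liprin family member, had the smallest adjusted p of all, with 198.9, 195 and 161 against 429, 399 and 407 (difference -1.16 ± 0.10, limma adjusted p = 0.0211). In the list of phagocytic and innate receptors, 2 of 49 passed, both lower (4.08%, against 0.591% of all genes). They were Fcer1g, the signalling chain of Fc receptors (-0.65), and Gas6, a ligand of the receptors Axl and Mertk (-0.75). Of the 49, 44 were below 0, as were 53.9% of all genes. In 17 (34.7%, against 13.1% of all genes) the C3aR+ libraries lay below all sorted without overlap. DESeq2 called 7 lower (3.91% of all genes were) and edgeR 1 (0.295% of all genes were). Tlr2 (-0.73, adjusted p = 0.0571) and the adaptor Tyrobp (-0.50, adjusted p = 0.0720) did not pass, with no overlap between groups.

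Rises were smaller and fewer than falls. Ets1, a transcription factor, had the greatest rise of the called genes, with 43.9, 44.2 and 49.2 in C3aR+ and 19.4, 16.5 and 27.1 in all sorted, a difference of 1.12 ± 0.18 (limma adjusted p = 0.0421). Upf3b, a component of nonsense-mediated decay and the exon junction complex, was 68.5, 90.4 and 71.9 against 41.4, 36.1 and 35.1 (difference 1.01 ± 0.13, limma adjusted p = 0.0344). These were the 2 called genes with a rise of at least 1 on that scale. Rbm25, a splicing regulator, was 763, 623 and 593 against 401, 321 and 319 (difference 0.92 ± 0.13, limma adjusted p = 0.0344). Chd2, a chromatin remodeller, was 560.0, 490.1 and 496 against 327, 291 and 291 (difference 0.76 ± 0.09, limma adjusted p = 0.0326).

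Among the 24 rising genes, Ythdc1, the nuclear reader of m6A (0.73), Thoc2, a subunit of the THO complex that couples transcription to export (0.62), the spliceosomal factors Prpf38b (0.75) and Prpf4b (0.60), and Sltm (0.89) all rose with no overlap. A list of 62 splicing and nuclear mRNA processing genes was drawn up after the calls were seen, and 61 were tested. In limma 14 of the 61 were called higher (0.197% of all genes were) and 0 lower. DESeq2 called 37 higher (3.71% of all genes were) and edgeR 10 (0.123% of all genes were). The list's median was 0.43. The choice of members fixed the list's values, and they support nothing by themselves.

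**Figure D4:**
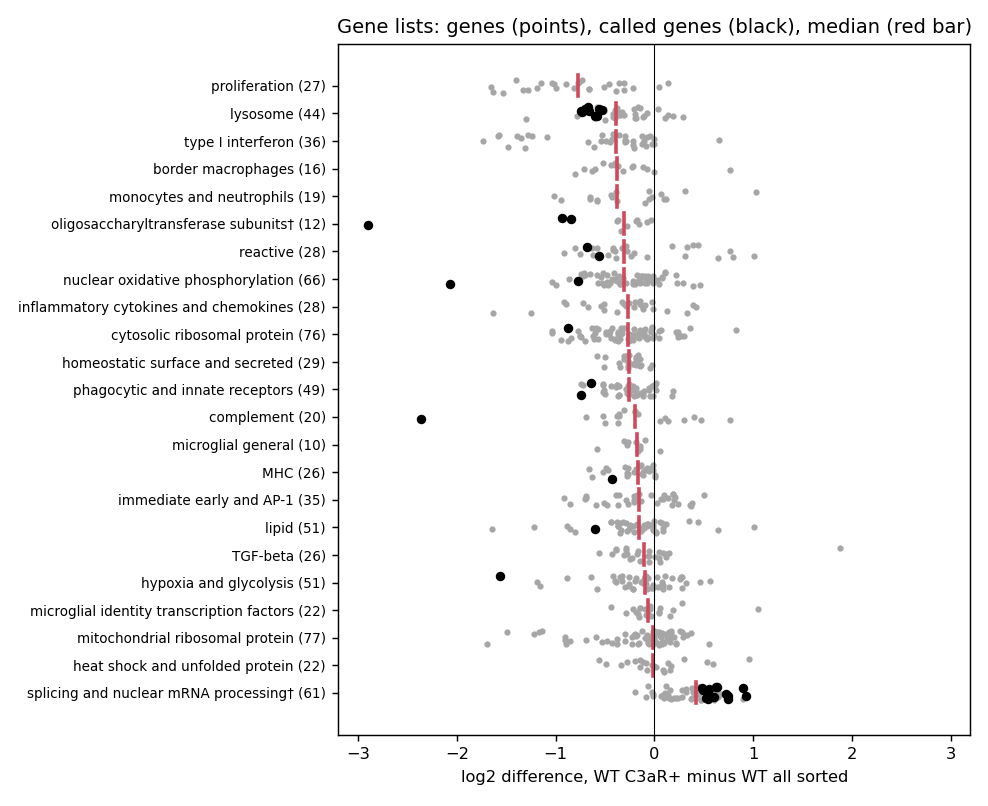
Log2 difference between the libraries labelled WT C3aR+ and WT all sorted (horizontal axis) for the genes of 23 lists, with the number tested in brackets, grey points for genes, black points for called genes and a red bar for the median. Daggers mark the lists put together after the values were seen. The lysosome list holds 10 black points left of 0 and the splicing list 14 right of 0, and most other lists hold none to 3.

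Difference and transcript length went together. In the 2407 genes with the shortest transcripts, by the longest one annotated per gene, the median difference was -0.11, with 24 called lower and 1 higher. In the 2407 with the longest it was 0.05, with 3 lower and 11 higher. Across 12033 genes the difference correlated with log2 length at r = 0.20, a description over genes that share these 6 libraries. Short transcripts of the protein synthesis and respiration machinery leaned the same way. Of all genes 53.9% were below 0, and 0.591% were called lower. Of 76 tested cytosolic ribosomal protein genes 65 were below 0 (median -0.26) and 1 was called (1.32%), Rplp2 (-0.87). Of 66 nuclear genes for oxidative phosphorylation 55 were below 0 (median -0.31) and 2 were called (3.03%), Atp5d (-0.77) and Ndufb6 (-2.07). The part of transcript length in the lysosomal and splicing results was not tested.

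Homeostatic microglial genes showed small differences, which were smaller under quantile normalization. All 29 tested members of the homeostatic list were below 0, with a median of -0.26. In 17 (58.6%, against 13.1% of all genes) the groups did not overlap, but 0 passed the limma test. Before adjustment 15 were lower at a limma p under 0.05, as were 1160 of all 12185 genes. DESeq2 called 5 lower, where it called 3.91% of all genes lower, and edgeR called 0. Tmem119, a microglial membrane protein, was 1440, 1591 and 1466 in C3aR+ and 1786, 1954 and 1726 in all sorted (difference -0.28, adjusted p = 0.189). The ADP receptor P2ry12 was 1959.6, 1609 and 1686 against 2006, 2329 and 1986 (difference -0.27, adjusted p = 0.292). Under quantile normalization these differences were -0.12 for Tmem119 and -0.10 for P2ry12, and the list had 22 of 29 members below 0 with a median of -0.15. The 2 other scalings moved the list less. By median ratio 28 of 29 were below 0 (median -0.23), and by TMM (trimmed mean of M-values) 29 of 29 (median -0.25). All 10 genes of the general microglial list had values in all 6 libraries, summing to 22906 to 25103 in C3aR+ and 26962 to 29225 in all sorted.

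Genes that microglia raise near plaques leaned lower, with some higher. In the reactive list, 2 of 28 tested passed, the lysosomal Ctsd and Ctsz named above, and both fell (7.14%, against 0.591% of all genes). The list's median was -0.31, with 19 of 28 below 0, as were 53.9% of all genes. Groups did not overlap for 12 lower members (42.9%, against 13.1%) and 2 higher ones (7.14%, against 9.91%). DESeq2 called 10 lower and 2 higher, where it called 3.91% and 3.71% of all genes. One test more, edgeR, called 1 lower, where it called 0.295% of all genes lower. Itgax, the integrin CD11c, was 70.4, 65.2 and 45.5 in C3aR+ and 34.2, 27.0 and 44.7 in all sorted (difference 0.76, adjusted p = 0.133). These groups did not overlap, by a small margin. In the complement list C3ar1 alone passed of 20 tested (5%, against 0.591% of all genes). Among genes of antigen presentation Tapbp, which loads peptides onto MHC class I, was the only one of 26 (3.85%), at -0.43.

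No gene passed in the lists for identity transcription factors, immediate early genes, heat shock, cytokines, type I interferon, TGF-beta signalling or mitochondrial ribosomal proteins. The interferon list had a median of -0.39, with 35 of 36 tested below 0, as were 53.9% of all genes. In 12 (33.3%, against 13.1% of all genes) the C3aR+ libraries lay below all sorted without overlap. By limma 12 were lower at a p under 0.05 before adjustment, as were 1160 of all 12185 genes. DESeq2 called 7 lower, where it called 3.91% of all genes lower. In the other lists just named DESeq2 called 1 to 3 genes each, and edgeR called 0 in all of them. In the lipid list 1 of 51 passed, the cholesterol carrier Npc2 (1.96%, against 0.591% of all genes). Of the 51, 40 were below 0. Groups did not overlap for 17 lower members (33.3%, against 13.1%) and 3 higher ones (5.88%, against 9.91%).

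Among markers of other cell types 0 passed the limma test, with 4 higher and 2 lower below 0.05 before adjustment. DESeq2 called 1 oligodendrocyte marker higher and 1 endothelial or mural marker lower, and edgeR called 0. Summed scaled values were 25.3 to 31.9 in C3aR+ and 22.8 to 29.2 in all sorted for 17 neuronal markers, 312 to 449 and 282 to 333 for 13 astrocyte markers, and 160.4 to 199 and 164 to 239.7 for 15 oligodendrocyte markers. For 17 endothelial and mural markers the sums were 375 to 523 and 486 to 549, for 16 border macrophage markers 2050.2 to 2344 and 1937 to 3306, and for 21 monocyte and neutrophil markers 1034 to 1467 and 997 to 2002. T, NK and B cell markers summed to 72.1 to 83.7 and 66.8 to 76.9, and red blood cell markers to 2.25 to 15.4 and 9.01 to 11.5. The ranges of both groups overlapped in all of these lists, and no marker with an entry was at 0 in all 6 libraries. Fewer cells of a type and less RNA per cell cannot be told apart in bulk samples, and the part of these markers in the results was not tested.

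The same sort was made in APP-KI mice, with libraries that the WT comparison does not share. There limma called 0 of 12906 genes, with 30 higher and 146 lower below 0.05 before adjustment, and no count test was run on that pair of groups. The difference between the WT and APP-KI contrasts, as an interaction term over 12 libraries and 12592 genes, also gave 0 calls (644 higher and 836 lower below 0.05 before adjustment, smallest adjusted p = 0.394), and edgeR gave 0. C3ar1 had the interaction value -2.34 ± 0.47 (SE; limma adjusted p = 0.394).

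Values in APP-KI ran opposite to WT, without a test that passed. All 24 genes higher in WT C3aR+ had an APP-KI difference below 0 (median -0.47), and 71 of the 72 lower genes had one above 0 (median 0.63), C3ar1 being the exception. The reversal was not particular to the called genes. Across 11992 genes the WT and APP-KI differences correlated at r = -0.55, a description over genes that share these 12 libraries. The lysosome list had a median of 0.49 in APP-KI and the splicing list -0.30. The size of these values rested largely on 1 library. APP-KI all sorted replicate 4 had the lowest lysosome mean of the 12 libraries (7.92) and the highest splicing mean (8.05), and it held 13250 genes above 0 where WT libraries held 15482 to 16632. APP-KI all sorted replicate 5 stood apart as well, with 21219 genes above 0. Without replicate 4 the median of the 24 genes was -0.02, with 11 above 0 and 13 below. The median fell to 0.19 for the 72 genes, with 69 still above 0, and to 0.18 for the lysosome list, with 38 of 44 above 0. The splicing list moved to 0.04, with 41 of 61 above 0. With APP-KI all sorted replicate 6 as the only comparison the medians were 0.02 for the 24 genes, 0.03 for the 72, -0.04 for the lysosome list and 0.07 for the splicing list. Without replicate 5 they were -0.54, 0.74, 0.50 and -0.42, and without replicate 6 they were -0.70, 0.94, 0.77 and -0.47.

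**Figure D5:**
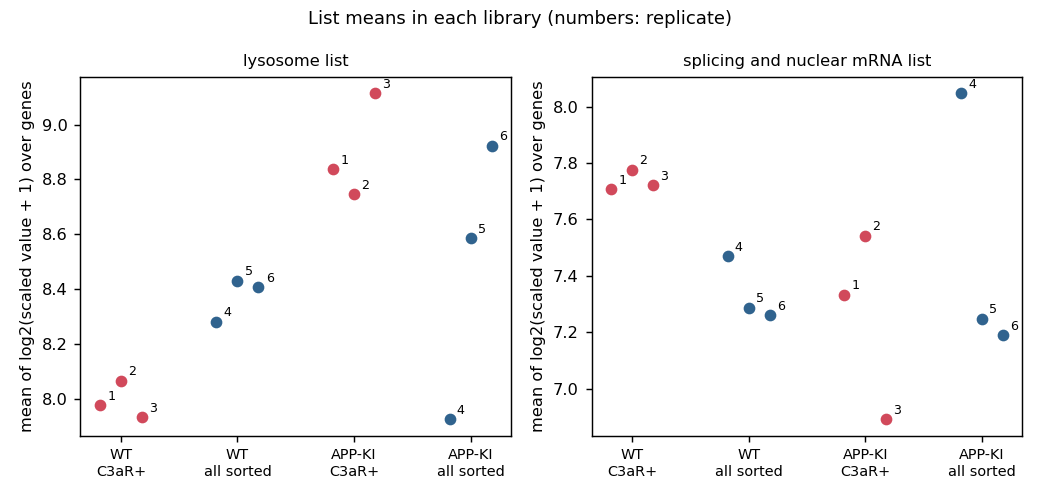
Mean of log2(scaled value + 1) over the lysosome list (left) and the splicing and nuclear mRNA list (right) in each of the 12 WT and APP-KI libraries, numbered by replicate, on axes that do not start at 0. The 3 WT C3aR+ libraries lie below the 3 WT all sorted libraries on the left and above them on the right, and APP-KI all sorted replicate 4 lies apart from its group at 7.92 and 8.05.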

How the data were processed

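The members of the comparison and the gene lists were chosen with earlier results of these data known. Total RNA libraries (Takara SMARTer Total RNA Pico v3) were, per the labels and the methods, trimmed with cutadapt, aligned to mm10 with TopHat2 and counted with featureCounts. Whether the UMIs or the strand were used is not given in the sources used here, so reads of overlapping or antisense genes cannot be told apart. The deposited signal is each gene's read count divided by its library's 75th percentile by the authors, for 21326 entries per library. All values became whole reads within 0.01 when multiplied back. They were scaled here by 1 constant (35.2). log2(scaled value + 1) of the 6 WT libraries was fitted with limma 3.58.1 (mean-variance trend, R 4.3.3) for genes with a mean of at least 1, and p-values were adjusted by Benjamini-Hochberg. edgeR 4.0.16 quasi-likelihood tests and DESeq2 1.42.0 on the recovered reads were alternatives. The fits were run on simulated counts with known changes and the same dispersion in both groups. The real groups differed in spread, so these runs do not cover that feature. A fold on this scale understates changes of low genes. Named genes were list members and the 15 largest rises and 15 largest falls among called genes with a mean of at least 10 in the higher group. Genes named outside this rule were chosen after their values were seen. GENCODE M21 (GRCm38) gave positions for 12033 of the 12185 genes tested and RefSeq gave neighbours and promoters. Xist and mitochondrially encoded genes had no value in the files used. A single called gene is counted in the lists but is not reported here.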

Additional observations from a re-analysis of the deposited data

How the results depend on the processing

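The counts of called genes moved with most choices. Genes higher and lower numbered 0 and 0 with no filter, 0 and 2 without the mean-variance trend (Ccl22 and Ndufb6, the latter among the 96), 0 and 0 in 1 fit of 12 libraries, 0 and 0 at an adjusted p under 0.0005, 15 and 36 with edgeR, 452 and 476 with DESeq2, and 0 and 3 (Ppfia4, Tfdp1 and C3ar1) with library weights by group, an alternative added after seeing the data. With WT all sorted replicate 4 alone as the comparison they were 0 and 0, and with replicates 5 and 6 they were 16 and 22. Lysosome genes lower numbered 0 with no filter, without the trend, with 12 libraries, with replicate 4 alone, at the stricter threshold and with the weights, 3 with replicates 5 and 6, 6 with edgeR and 26 with DESeq2. Without single replicates the ranges were 0 to 29 genes higher, 0 to 69 lower and 0 to 7 lysosome genes lower. Leaving out C3aR+ replicate 1 or all sorted replicate 5 or 6 gave 0 in all 3 counts. Without C3aR+ replicate 3 they were 9, 51 and 2, and without all sorted replicate 4 they were 16, 22 and 3. The C3ar1 difference kept its size (-2.58 to -2.03 without single replicates) but not its call: its adjusted p was 0.0970 with no filter, 0.0592 without the trend, 0.111 with 12 libraries, 1 with replicate 4 alone (-2.18), 0.0528 without C3aR+ replicate 1, 0.232 and 0.177 without all sorted replicates 5 and 6, and at 0.0326 it missed the stricter threshold (-2.37 with no filter, without the trend, with 12 libraries and at that threshold). Other scalings, a pseudocount of 0.1 and a mean of at least 5 left the counts within 1.5 times, though the share of higher calls was 25% as reported, 34.7% by median ratio, 48.7% by DESeq2 and 42.1% without replicate 4. Of 1056 values of 53 printed genes under these settings, 0 changed sign, 495 lost their call and 10 gained one. Leaving out a library cannot change the sign of a gene whose groups do not overlap. The difference between WT and APP-KI stayed at 0 genes in all settings but 1: without APP-KI all sorted replicate 6 it was 2 (Notch4 and Gimap3), a range of 0 to 2. Replicate numbers repeat across the genotypes, but same-numbered libraries deviated together at r of -0.01 to 0.25, so the numbers were not taken as pairs, and the replicate block gave 0 genes. Precision is limited by 3 libraries per group and by the depth of the C3aR+ libraries for low genes. The causes of these shifts were not tested.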
